A study of Mus musculus with 3 samples.

Results

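The sequence 1 to 5 Mb from the beta-globin viewpoint on mouse chromosome 7, on the side of the locus control region (LCR), was examined for contacts with the beta-globin locus. Its members were all listed DpnII fragments with a midpoint more than 1 Mb and up to 5 Mb from the viewpoint centre, in mm9 chr7:111976215-115976215. These were 3429 of the 48123 listed fragments (7.13%), chosen by position and not by their reads. The samples were erythroid cells grown from fetal livers taken at E12.5, expanded for 6 days, selected for CD117 and differentiated, with a 24 h harvest named in the labels' protocols. All 3 samples carried a homozygous deletion of the beta-globin enhancers HS2 and HS3, their strain is given as mixed, and the labels place them at the late erythroid stage. No group without the deletion was analysed here, so the comparisons are between positions within this profile and not between genotypes. The labels speak of cells from individual fetal livers without tying a sample to a liver, so the spread between the samples may in part be technical. Because the count columns carry no replicate number of their own, they are named by their position in the table, from the first to the third, and not by replicate.

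Next-generation Capture-C records which restriction fragments were ligated to a chosen viewpoint fragment after crosslinking, so that a read count stands for how often a fragment lay close to the viewpoint in the cell population. Contacts fall with distance along the chromosome, and beyond the local domain they are known to follow chromatin state, with active sequence meeting active sequence and silent sequence meeting silent sequence. The mouse beta-globin genes are set among olfactory receptor genes, which are silent in erythroid cells, and the LCR is the distal enhancer cluster that drives globin transcription there. In the gene order of GRCm38, the olfactory receptor genes beyond the LCR are interrupted first by a block of 11 protein-coding genes from Trim6 to Trim30d. A block of 21 from Fam160a2 to Gm1966 follows, which holds Ilk (integrin-linked kinase), Taf10 (a subunit of the general transcription factor TFIID) and Tpp1 (a lysosomal peptidase), and then a block of 6 from Rbmxl2 to Ovch2. That order is from another build than the fragments, so no gene was placed in a window.

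The columns held 49433, 49247 and 37382 reads on chromosome 7 (cis reads). Of these, 2331 (4.72%, 95% exact binomial interval 4.53 to 4.91), 2382 (4.84%, 4.65 to 5.03) and 1788 (4.78%, 4.57 to 5.00) lay in the region. The share was thus 4.78% ± 0.061 (SD, n = 3), and the intervals of the columns overlapped. These intervals cover counting error at most. They treat each read as an independent draw, and reads are not known to be independent molecules, so they may be too narrow. A count of 0 in a column allowed up to 0.00607%, 0.00609% and 0.00803% of its reads.

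Contacts of the region were concentrated in 2 stretches, at 1.5 to 2 Mb and at 2.6 to 2.9 Mb from the viewpoint, separated and followed by sequence with fewer reads. Densities are reads divided by the kb in listed fragments and scaled to 100000 cis reads in each column. Over the whole region the density was 2.75, 2.83 and 2.79 in the 3 columns (2.79 ± 0.036, SD, n = 3). In steps of 500 kb it was 2.43 ± 0.095 at 1 to 1.5 Mb, 4.56 ± 0.16 at 1.5 to 2 Mb, 2.05 ± 0.19 at 2 to 2.5 Mb and 3.51 ± 0.19 at 2.5 to 3 Mb. Beyond 3 Mb the 4 steps of 500 kb lay between 1.62 ± 0.22 and 1.95 ± 0.15. The profile therefore did not fall evenly with distance: the step at 1.5 to 2 Mb exceeded the nearer step at 1 to 1.5 Mb in every column, with 4.38, 4.64 and 4.66 against 2.33, 2.51 and 2.46.

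**Figure D1:**
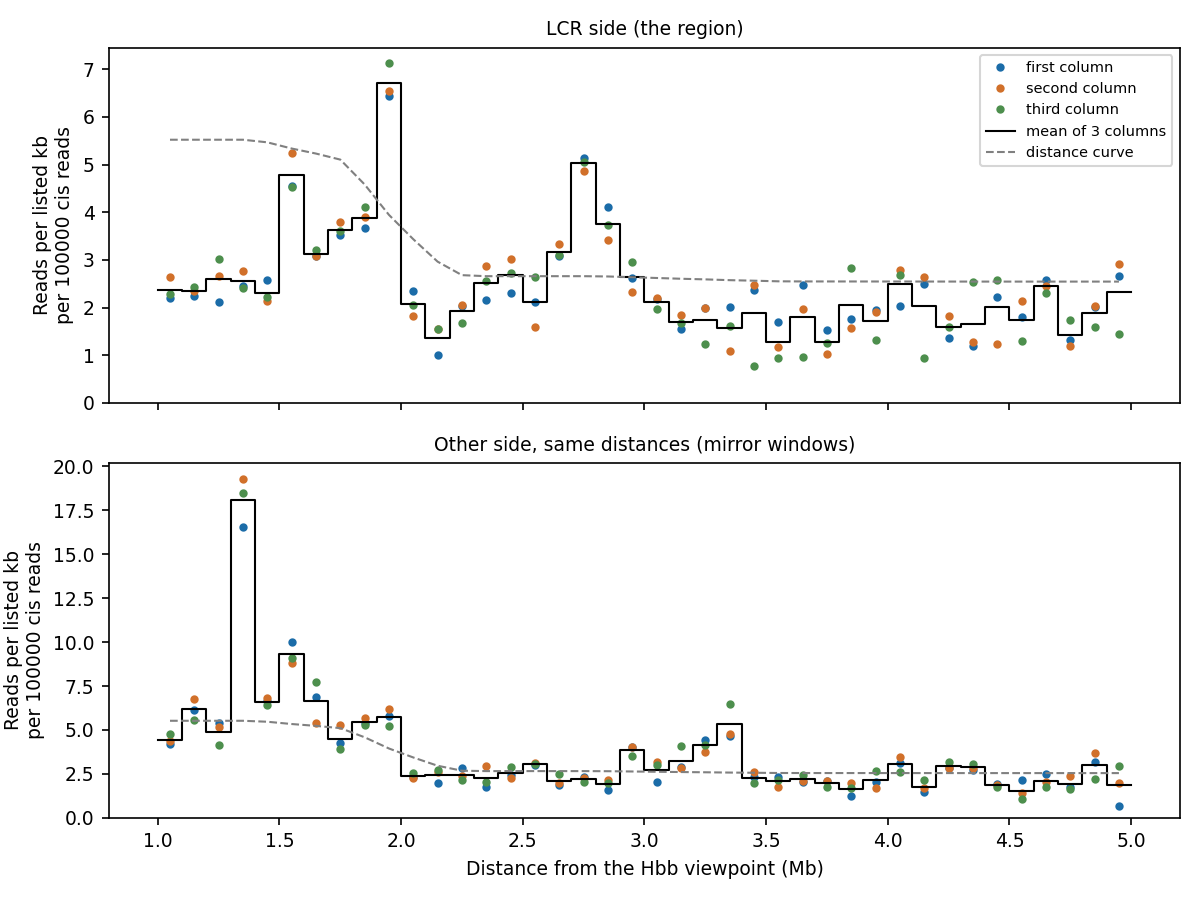
Read density (reads per listed kb per 100000 cis reads) in 100 kb windows against distance from the viewpoint in Mb, for the LCR side (top) and the other side (bottom); points are the 3 columns, the black line is their mean, the dashed line is the distance curve from both sides, and the vertical scales of the panels differ. On the LCR side the windows at 1.9 to 2 Mb and 2.7 to 2.8 Mb are the highest, with means of 6.71 and 5.03, and on the other side the window at 1.3 to 1.4 Mb is the highest, with 18.1.

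The stretch at 1.5 to 2 Mb, chr7:112476215-112976215, held 788, 833 and 634 reads. That was 33.8%, 35.0% and 35.5% of the reads of the region in the 3 columns, on 500 kb of its 4000 kb span. Its density was 1.87-fold that of 1 to 1.5 Mb (1.85 to 1.89 over the columns) and 2.22-fold that of 2 to 2.6 Mb (2.15 to 2.33). The stretch at 2.6 to 2.9 Mb, chr7:113576215-113876215, held 354, 328 and 257 reads, or 15.2%, 13.8% and 14.4% of the reads on 7.5% of the span. Its density, 4.06 ± 0.15, was 1.98-fold that of 2 to 2.6 Mb (1.82 to 2.25) and 2.15-fold that of 2.9 to 5 Mb (2.08 to 2.27). The borders of both stretches were drawn after seeing the profile, so these ratios describe it and were not tested. In the 8 windows of 100 kb in the stretches the mean density was 3.13 to 6.71, and in the remaining windows of the region it was 1.27 to 2.68. One listed fragment bears on this gap. The fragment chr7:113122084-113172502, at 2.17 Mb, is 50419 bp long, where the next longest member is 3253 bp, and it held 0, 2 and 0 reads. Whether it is a true DpnII fragment or a gap in the assembly could not be checked without the mm9 sequence. Without it the window at 2.1 to 2.2 Mb had a density of 3.32 ± 0.75, inside the range of the stretches. The density at 2 to 2.6 Mb was then 2.45 ± 0.18, and the stretches exceeded it 1.86-fold (1.81 to 1.95) and 1.66-fold (1.53 to 1.88).

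The outer border of the first stretch was steep. At 1.9 to 2 Mb (chr7:112876215-112976215) the columns held 276, 279 and 231 reads, and in the adjoining window at 2 to 2.1 Mb they held 53, 41 and 35. The densities were 6.71 ± 0.37 and 2.08 ± 0.26, a fall of 3.24-fold (2.74 to 3.58 over the columns). Per kb of span, counting unlisted sequence as without reads, the fall was 6.13-fold.

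Within the stretches the reads gathered at a few positions. Of the 200 windows of 20 kb in the region, with a median of 19 reads, 7 held at least 100, and the 5 with the most reads held 16.6% of the region's reads. The highest was 1.9 to 1.92 Mb, chr7:112876215-112896215, with 119, 120 and 104 reads and a density of 12.6 ± 1.04. It was followed by 1.56 to 1.58 Mb with 78, 96 and 62 reads (8.55 ± 0.97) and by 2.7 to 2.72 Mb with 80, 60 and 62 reads (7.99 ± 1.3). In each of these windows every column exceeded the median density of the 20 kb windows, 2.29. The windows were picked by the reads of these same columns, so this is no separate support. The window at 1.98 to 2 Mb, at the border, held 52, 60 and 38 reads.

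**Figure D2:**
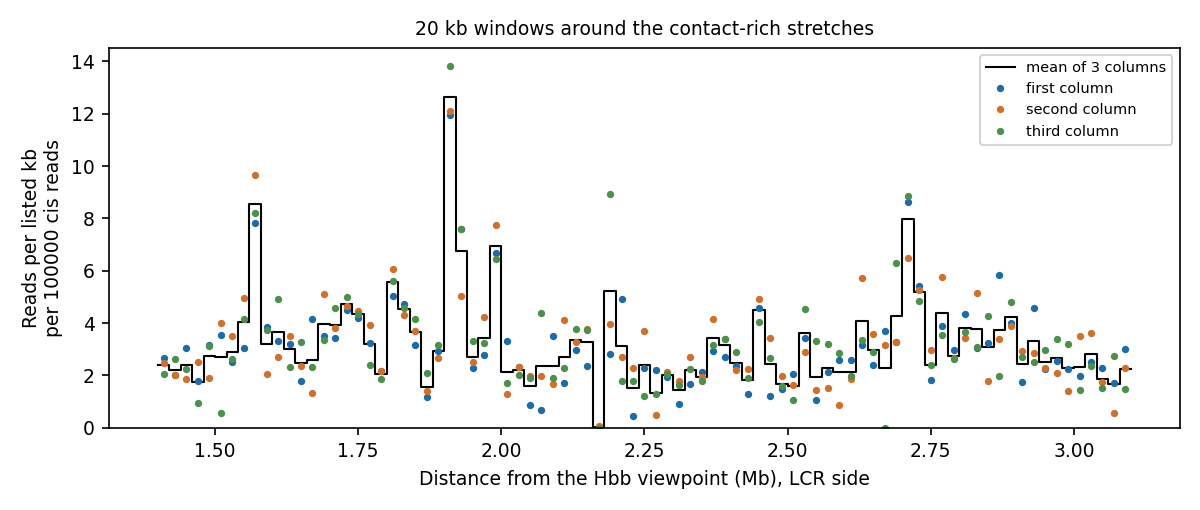
Read density (reads per listed kb per 100000 cis reads) in 20 kb windows between 1.4 and 3.1 Mb from the viewpoint on the LCR side; points are the 3 columns and the line is their mean. The window at 1.9 to 1.92 Mb is the highest, with 12.6, and the sharp minimum at 2.16 to 2.18 Mb is the window that holds the midpoint of the longest fragment.

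The 10 fragments with the most reads all lay in the 2 stretches, 7 at up to 2 Mb and 3 at 2.6 to 2.9 Mb. The highest, chr7:113864508-113866563 (2056 bp, 2.89 Mb away), held 13, 6 and 15 reads, and the next, chr7:113693907-113694340 (434 bp), held 12, 5 and 10. The third, chr7:112885289-112886716 (1428 bp), held 9, 8 and 9 reads and varied least among these 3. With it, 4 of the 10 fell in chr7:112882526-112887437, a run of 7 fragments over 4912 bp at 1.91 Mb, with 33, 33 and 38 reads and a density of 16.0 ± 4.09. One of the 4, chr7:112882526-112884513, took 12 of its 18 reads from the third column. The 10 fragments held 222 reads, 3.41% of the region, so no single fragment made either stretch. Their lengths, 314 to 2056 bp, had a median of 852 bp against 370 bp for all members.

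Each window of 100 kb was then tested against a distance curve, the monotone fall of density with distance over both sides of the viewpoint. By edgeR's quasi-likelihood test with Benjamini-Hochberg adjustment over 505 windows of the chromosome, 3 of the 40 windows of the region were above the curve, where 10.5% of all windows were. Another 13 of 40 (32.5%) were below it, against 9.5% of all windows. The median log2 ratio was -0.47 in the region and -0.19 over all windows. The share above the curve was near the background, whereas the share below it was larger. Only windows with at least 30 reads were tested, 505 against 1365 with no minimum count. Sparse windows elsewhere thus entered mainly when high, so the shares below the curve are not like for like. Without the third column 7 windows were below the curve, and 2 were above it.

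The windows above the curve were 2.7 to 2.8 Mb, 1.9 to 2 Mb and 2.8 to 2.9 Mb. At 2.7 to 2.8 Mb (chr7:113676215-113776215) the columns held 156, 147 and 116 reads, which was 1.89 ± 0.054 times the expectation (SD, n = 3) (log2 ratio 0.91, higher in 3 of 3 columns, edgeR adjusted p = 3.68e-07). At 1.9 to 2 Mb the ratios were 1.63, 1.66 and 1.81 (log2 0.76, edgeR adjusted p = 3.68e-07). At 2.8 to 2.9 Mb (chr7:113776215-113876215) the mean was 1.41 ± 0.13, with 131, 109 and 90 reads (log2 0.50, edgeR adjusted p = 0.00126). This last call was lost without the third column (edgeR adjusted p = 0.0698) and with a power law as the curve (0.181). The next highest, 2.6 to 2.7 Mb and 2.4 to 2.5 Mb, had log2 ratios of 0.25 and 0.0089 and did not pass the test. The stretch at 1.5 to 2 Mb was above the curve in 1 of its 5 windows only. Its windows at 1.6 to 1.7 Mb (log2 -0.74, edgeR adjusted p = 6.61e-05) and 1.7 to 1.8 Mb (log2 -0.49, edgeR adjusted p = 7.06e-04) were below it, and the other 2 did not pass the test. The calls in this stretch depended on the curve. With a curve through the LCR side alone 2 windows were above and 0 below, and with a power law 2 above and 1 below. With a curve fitted without the region 1 was above and 4 were below.

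All 5 windows at 1 to 1.5 Mb were below the curve, with log2 ratios of -1.24 to -1.09. Those at 1 to 1.1, 1.1 to 1.2, 1.3 to 1.4 and 1.4 to 1.5 Mb were among the 5 lowest of the region, with -1.21, -1.24, -1.11 and -1.24. Their densities, 2.37 ± 0.23, 2.34 ± 0.096, 2.55 ± 0.19 and 2.31 ± 0.23, differed from each other by little more than the spread between columns. The curve at these distances was drawn up by the other side. With a curve through the LCR side alone, the log2 ratios of the 4 named windows were -0.53, -0.55, -0.42 and -0.57, so that the deficit was less than before. In that fit 4 of the 5 windows at 1 to 1.5 Mb were called below, and 4 windows of the region, including the same 3, were called above.

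The remaining window of the 5 lowest, 2.1 to 2.2 Mb, had a log2 ratio of -1.13 that rested on 1 fragment. Without the fragment of 50419 bp the density of the window went from 1.36 ± 0.32 to 3.32 ± 0.75, its log2 ratio to 0.059 and its edgeR adjusted p to 0.792.

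**Figure D3:**
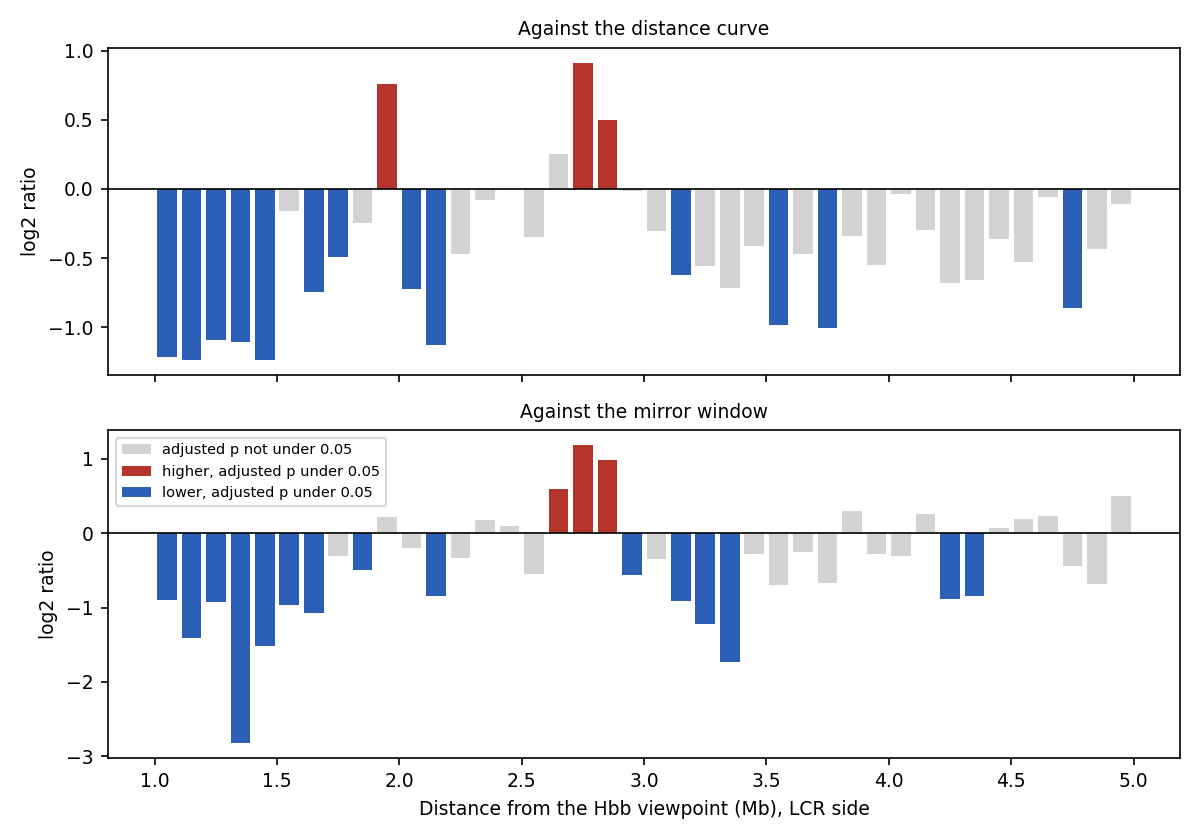
The log2 ratio of each 100 kb window of the region to the distance curve (top) and to the window at the same distance on the other side (bottom), against distance in Mb; colour marks the direction of windows with an edgeR adjusted p under 0.05. Of the 40 windows, 3 are above and 13 below the curve, and 3 are higher and 15 lower than their mirror window.

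The sequence at the same distances on the other side of the viewpoint, here called the mirror region, served as an internal comparison for distance. It held 15052 reads against 6501. Its density was 4.19, 4.37 and 4.33 in the 3 columns (4.30 ± 0.095), so that the columns of the 2 sides did not overlap. The region was 1.54-fold lower (log2 ratio -0.62 ± 0.015, SD, n = 3), with p = 0.25 in the two-sided exact sign-flip permutation test, the smallest that 3 columns allow. Listed fragments covered 42.8% of the region and 64.4% of the mirror region, and per kb of span the log2 ratio was -1.21. The mirror window at 1.3 to 1.4 Mb alone held 2395 reads, 15.9% of the mirror region, and without that distance on both sides the log2 ratio was -0.42 ± 0.0045.

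The ratio between the sides varied along the region, which was not tested for the steps of 500 kb. At 1 to 1.5 Mb the region was 3.43-fold lower than its mirror (log2 -1.80, -1.81 and -1.73 in the columns), and at 1.5 to 2 Mb the log2 ratio was -0.49 ± 0.079 (-0.58, -0.44 and -0.45). At 2 to 2.5 Mb it was 1.18-fold lower (-0.28, -0.16 and -0.28). Without the fragment of 50419 bp the log2 ratio of that step was 0.044 ± 0.065 (0.0096, 0.12 and 0.0033), so the lower value at 2 to 2.5 Mb rested on that fragment. At 2.5 to 3 Mb the region was 1.27-fold higher (0.41, 0.21 and 0.42). At 3 to 3.5 Mb it was again 2.00-fold lower, with a wide spread (-0.74, -0.87 and -1.39), and in the 3 steps from 3.5 to 5 Mb it was 1.14-fold to 1.33-fold lower.

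By edgeR's quasi-likelihood test with the column as a block, 15 of the 40 windows (37.5%) were lower than their mirror window and 3 (7.5%) were higher. Over all 363 distances tested the shares were 9.37% in each direction. A distance entered with at least 30 reads over both sides, and fewer reads make a call less likely, so these shares may not be like for like. The median log2 ratio was -0.40 in the region and 0.077 over all distances. All 5 windows at 1 to 1.5 Mb, 3 of the 5 at 1.5 to 2 Mb, 1 of the 6 at 2 to 2.6 Mb and 6 of the 21 at 2.9 to 5 Mb were lower. None of the 3 at 2.6 to 2.9 Mb was lower. The 1 at 2 to 2.6 Mb was 2.1 to 2.2 Mb, whose log2 ratio went from -0.84 to 0.43 (edgeR adjusted p = 0.178) without the fragment of 50419 bp, which left 0 of the 6 lower. Without the second column 5 windows were lower and 0 were higher, where 2 columns enter the fit.

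The lowest of these ratios was at 1.3 to 1.4 Mb, where 74, 83 and 55 reads faced 797, 925 and 673 on the other side (log2 -2.82, edgeR adjusted p = 9.55e-119). Without the second column its log2 ratio was -2.83 and its edgeR adjusted p 0.00238, so the size of the p depended on the columns fitted. The window itself was not low among its neighbours in the region, and its mirror was the highest of the mirror region. At 3.3 to 3.4 Mb, 28, 15 and 17 reads faced 201, 205 and 210 (log2 -1.74, edgeR adjusted p = 3.59e-15). At 1.4 to 1.5, 1.1 to 1.2 and 3.2 to 3.3 Mb the log2 ratios were -1.51, -1.40 and -1.22. The calls at 3.3 to 3.4 and 3.2 to 3.3 Mb were lost without the second column (edgeR adjusted p = 0.0856 and 0.0881).

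The 3 windows that were higher than their mirror made up the stretch at 2.6 to 2.9 Mb. At 2.7 to 2.8 Mb the density was 5.15, 4.87 and 5.06 against 2.30, 2.27 and 2.03 on the other side (log2 1.18, edgeR adjusted p = 1.83e-09). At 2.8 to 2.9 Mb it was 4.10, 3.42 and 3.72 against 1.57, 2.18 and 1.95 (log2 0.98, edgeR adjusted p = 4.14e-05). At 2.6 to 2.7 Mb it was 3.09, 3.33 and 3.11 against 1.86, 1.99 and 2.52 (log2 0.60, edgeR adjusted p = 0.0418). In each of the 3 the columns of the sides did not overlap, which adds no support, since the windows were picked by this same comparison. Without the second column none of the 3 was called, with edgeR adjusted p of 0.0800, 0.104 and 0.315, and without the first column only 2.7 to 2.8 Mb was. The call at 2.6 to 2.7 Mb was also lost per listed fragment (edgeR adjusted p = 0.237), with the other unlisted stretch as viewpoint (0.483) and with DESeq2 (0.202). Per listed fragment, 1 window at 1.5 to 2 Mb was called higher in its place. The window at 1.9 to 2 Mb, one of the windows above the curve, did not pass the test against its mirror (6.71 ± 0.37 against 5.74 ± 0.49, edgeR adjusted p = 0.190). The next highest ratios, at 4.9 to 5 Mb (log2 0.49, edgeR adjusted p = 0.403) and 3.8 to 3.9 Mb (log2 0.29, 0.611), did not pass it either. The first of these passed without the third column, with a log2 ratio of 1.13 and an edgeR adjusted p of 0.0222.

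Against its neighbours on the LCR side, the region lay between them. The 1398 fragments from 150 kb to 1 Mb had a density of 5.44 ± 0.39, 1.95-fold that of the region (log2 ratio of the region -0.96 ± 0.090). The 3789 fragments from 5 to 10 Mb had 2.55, 2.74 and 2.49 (SD 0.13), and the region was 1.08-fold higher (log2 0.11 ± 0.061). Both exact sign-flip permutation tests gave p = 0.25, two-sided. The difference from 5 to 10 Mb was larger than the spread per listed kb, with the same sign in all 3 columns. It was 0.053 ± 0.061 per listed fragment, within the spread, where the columns did not all go the same way (exact p = 0.5). Outside its 2 stretches the region was not above that farther sequence, with 1.81 ± 0.14 at 3 to 5 Mb. Within the region the log-log slope of density on distance was -0.31, -0.43 and -0.53 in the columns (-0.42 ± 0.11), against -0.90 ± 0.041 in the mirror region. The slopes differed by 0.47 ± 0.15 (exact sign-flip permutation p = 0.25, two-sided).

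**Figure D4:**
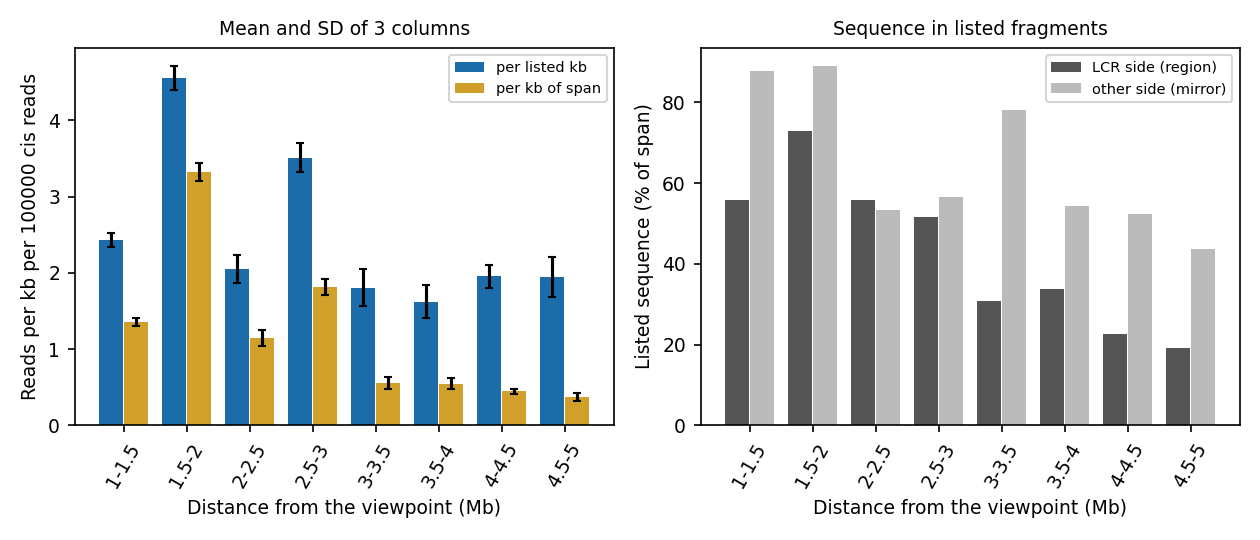
Left, read density of the region in steps of 500 kb, per listed kb and per kb of span (reads per kb per 100000 cis reads, bars are means and whiskers SD of 3 columns); right, the percentage of the sequence covered by the list, for each side of the viewpoint. At 1.5 to 2 Mb, 72.8% of the region was listed, and at 4.5 to 5 Mb 19.1%.

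Coverage by the list moved with these results. The listed share was 55.8% at 1 to 1.5 Mb, 72.8% at 1.5 to 2 Mb, 51.6% at 2.5 to 3 Mb and 19.1% at 4.5 to 5 Mb. Across the 40 windows it had a Spearman correlation of 0.60 with the density per listed kb and of 0.94 with the density per kb of span, values that share the same libraries and the same list. The density per kb of span is the density per listed kb multiplied by the listed share, so the second correlation was in part built in. The listed share also fell with distance (Spearman correlation -0.84), so neither value separates coverage from distance. Per kb of span the density fell from 1.36 ± 0.053 at 1 to 1.5 Mb to 0.480 ± 0.037 at 3 to 5 Mb, or 2.83-fold, where per listed kb the fall was 1.35-fold. In the 2 stretches the order was the same on both scales, with 3.32 ± 0.12 per kb of span at 1.5 to 2 Mb and 2.30 ± 0.084 at 2.6 to 2.9 Mb. The rule behind the list is not stated in the sources used, and its part in these differences was not tested.

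Most members held few reads. Of the 3429 fragments, 476 (13.9%) had no read in any column, 2255 (65.8%) had reads in 1 column only, 553 (16.1%) in 2 columns and 145 (4.23%) in all 3. Those 145 fragments held 19.0% of the reads, and 50 fragments held at least 10 reads. Between the first and the second column 368 fragments with reads were shared, 26.8% of the first and 27.0% of the second column's. At this depth most single fragments were seen in 1 column only, so comparisons were made over windows.

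Fragment length had little bearing on the count of a fragment and much on its density. Members of 16 to 159 bp held 1.11 ± 0.024 reads per fragment per 100000 cis reads, and those of 737 bp and more held 1.59 ± 0.086. Per listed kb the order was the opposite, from 11.4 ± 0.25 down to 1.29 ± 0.070. Windows of shorter fragments can therefore show a higher density. The median length was 398 bp at 1 to 1.5 Mb, 356 bp at 1.5 to 2 Mb, 336 bp at 2.6 to 2.9 Mb and 376 bp at 2.9 to 5 Mb. Counted per listed fragment, the same 3 windows were called above the curve.

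**Figure D5:**
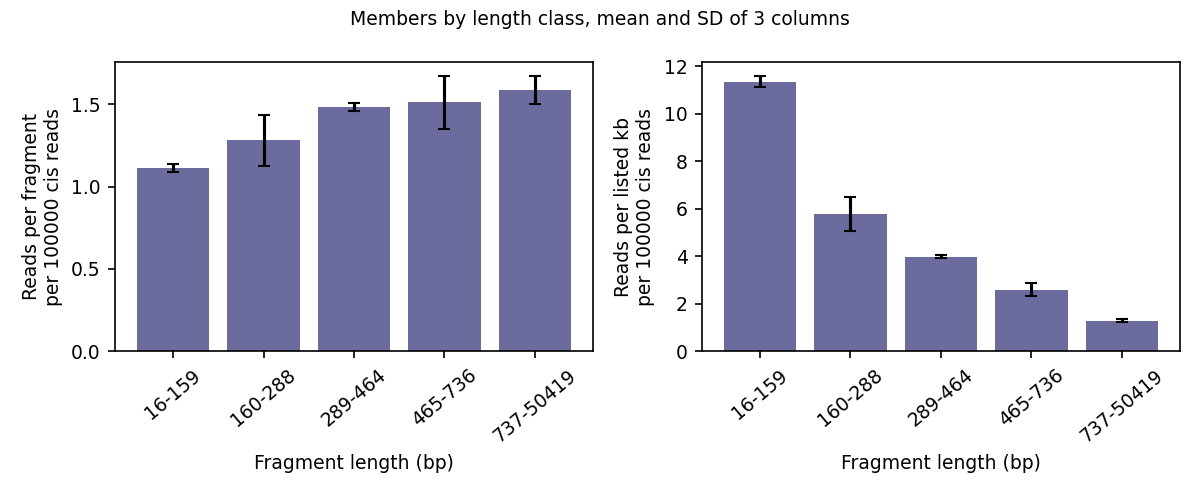
Reads per fragment (left) and reads per listed kb (right), both per 100000 cis reads, for the members in 5 classes of fragment length in bp; bars are means and whiskers SD of the 3 columns. Reads per fragment range from 1.11 to 1.59, whereas reads per listed kb range from 11.4 to 1.29.

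The longest stretches without reads were short. The 5 longest runs of listed fragments without a read in any column covered 3850, 3080, 2916, 2912 and 2656 listed bp and began at 115763359, 114351492, 113280784, 113024382 and 114952115. They were made of only 2, 1, 3, 3 and 1 fragments, and 3 of the 5 runs lay beyond 3 Mb. The distance curve predicted 13.3, 10.8, 10.5, 13.5 and 9.20 reads for them. That prediction scales with listed length, on which the count of a fragment depended little. Members of 737 bp and more held 2.17 reads each over the columns, so the prediction is too high for runs of few long fragments. No run of the region had more than 5 fragments.

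The columns agreed on the near part of the region and not on the far part. Over the 20 windows at 1 to 3 Mb the Spearman correlations of density between columns were 0.83 to 0.90. Over the 20 windows at 3 to 5 Mb the first and the second column had 0.70, whereas the third had -0.15 with the first and -0.10 with the second. These windows held 32 to 110 reads over all columns. At 3.4 to 3.5 Mb, for example, the columns held 24, 25 and 6 reads, and the density was 1.88 ± 0.95. Windows within a library are not independent replicates. Over all 40 windows chi-square per degree of freedom was 0.93 between the first and the second column, 1.44 between the first and the third and 1.43 between the second and the third. Over the 505 windows of the chromosome it was 1.60, 1.71 and 1.89. The first and the second column thus differed by more than counting noise over the chromosome, but not within the region. All columns were taken as separate samples, which these values cannot show. The ratios given above for single windows beyond 3 Mb rest on these counts.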

How the data were processed

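Per the labels, all 3 samples are of 1 group, and per the submitters' processing notes the reads were processed with Trim Galore and Bowtie2 on build mm9, without versions. The authors deposited whole-number read counts, not normalized, for fragments of chromosome 7, in 3 columns under a header of 1 cell. The counting of junctions and the listing of fragments are not given in the sources used here. Fragments were assigned by midpoint, with the viewpoint at 110976215, the centre of the unlisted stretch beside the fragment with the most reads. A similar stretch lies 13.9 kb away, and what the profile combines is not stated. The distance curve, in reads per listed kb, was fitted to 10 distance bins per decade by isotonic regression with scikit-learn 1.9.0. Windows of 100 kb beyond 100 kb, with at least 30 reads, were tested with edgeR 4.0.16 (R 4.3.3), with an adjusted p threshold of 0.05. The test against the curve used an intercept and the expectation as offset; since glmQLFTest refuses a design of 1 column, its F test was computed from glmQLFit. Both fits were tested on simulated data: of windows changed 2-fold, 95.8% of 168 were recovered against the curve and 48.3% of 120 against the mirror. False calls were 3 against the curve and 0 against the mirror. Unchanged windows were simulated exactly on the expectation with the same spread for all, so the scatter of real windows about the curve was not covered. All 40 windows of the region passed the filter. Windows elsewhere that passed only through high counts had to be high, so the background shares describe the windows tested. Alternatives were DESeq2 1.42.0, other windows, curves, denominators, filters and viewpoints. The region and the tests were chosen with earlier results of these data known. Named were the 5 highest and 5 lowest windows by each ratio, the 10 fragments with the most reads and the 5 longest runs without reads; the 2 stretches, the 20 kb windows, the run of 7 fragments and the longest fragment were chosen after their values were seen. No sequence is printed, since no mm9 genome was used here.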

Additional observations from a re-analysis of the deposited data

How the results depend on the processing

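No alternative turned the direction of the density ratios to the mirror region, to 150 kb to 1 Mb or to 5 to 10 Mb, whose exact test could not go below 0.25 with 3 columns or 0.5 with 2. Capping fragment counts at each column's 99th percentile gave a share of 6.57% and a density of 3.84. The caps, 20, 17 and 19 reads, were above every count of the region's 10 top fragments, so that rise came from a smaller cis total. Cis reads beyond 5 kb gave a share of 5.36%. Fragments with a read alone gave a density of 3.22, and leaving out the longest fragment gave 2.88. Leaving out 1 column moved the share to 4.75% to 4.81%, the density to 2.77 to 2.81, the slope to -0.48 to -0.37, the log2 ratio to the mirror to -0.63 to -0.62, to 150 kb to 1 Mb to -1.003 to -0.91 and to 5 to 10 Mb to 0.076 to 0.14. It moved the windows above the curve to 2 to 3, below it to 7 to 12, higher than their mirror to 0 to 4 and lower to 5 to 18. The 7 came without the third column and the 0 and 5 without the second, where fewer samples enter each fit. A power law called 23 windows below the curve (12 of the 13) and 3 above (2 of the 3), and 200 kb windows, 20 in number, called 1 higher and 9 lower than their mirror. The power law also moved the median log2 ratio of all windows to -0.073.

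Signs turned for 4 named windows, 3 of which had not passed the test concerned. The window at 2.4 to 2.5 Mb went to -0.079 at its lowest and 0.079 at its highest with 1 column left out, to -0.37 with a power law, to -0.043 per listed fragment, to -0.048 without the longest fragment and to -0.063 with a curve fitted without the region. The window at 2.6 to 2.7 Mb went to -0.088 with a power law. Against its mirror, 4.9 to 5 Mb went to between -0.11 and 1.13 with 1 column left out and to -0.13 per listed fragment. The called window at 2.1 to 2.2 Mb went to 0.0039 per listed fragment and 0.059 without the longest fragment. The cause was not tested, except that the last follows from that fragment. The windows above the curve were the same 3 with TMM factors, DESeq2, capped counts, no minimum count and a curve without the region. Fitting the sides with no replicate block gave the same 3 higher and 15 lower windows. No paired analysis between groups was possible because there is only 1 group. The alternatives without the longest fragment, without 1.3 to 1.4 Mb and with a curve fitted without the region were chosen after seeing the data.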
